A study of Mus musculus with 15 samples.

Results

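De novo lipogenesis was followed through 10 genes in the quadriceps muscle of 15 mice: Fasn, Acly, Acaca, Acacb, Elovl6, Scd1, Scd2, Me1, Thrsp and Mlxipl. They were taken as a list of enzymes and regulators of the pathway, without a threshold on any measured value but with earlier results of these data known. Their shares and medians set beside those of all genes are therefore descriptive. All 10 were found among the 39179 gene identifiers of the count files. The study sequenced muscle RNA of C57BL/6 mice homozygous for V338Y, an exchange in the mitochondrial ribosomal protein MrpS5 that makes mitochondrial translation error-prone, and of wild-type mice, to ask how mistranslation alters the ageing of a post-mitotic tissue. There were 4 wild-type mice (mice 1 to 4) and 4 V338Y mice (mice 1 to 4) at 3 mo, and 3 wild-type mice (mice 2, 4 and 5) and 4 V338Y mice (mice 2 to 5) at 19 mo. The mutants come from 1 transgenic strain in which the exchange is not restricted to muscle, and no group received a treatment.

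The libraries held 8250653 to 18968132 counts per mouse. Mrps5 mRNA was present at 14.96 to 27.5 CPM (read counts scaled to a common library size with TMM factors) in all mice, and its level does not check the genotype, since the exchange changes a codon and not the amount of transcript. The 10 myofiber transcripts chosen as a tissue check summed to 180608 to 342834 CPM. The 8 mice of 3 mo carried the Y-linked transcript Ddx3y (163 to 202 CPM) and almost no Xist (at most 0.575 CPM), and the 7 mice of 19 mo carried Xist (506 to 631 CPM) and almost no Ddx3y (at most 0.0827 CPM), while the methods describe the 3 mo mice as female. Age and sex therefore cannot be told apart in these libraries, and each comparison of 19 mo with 3 mo below is a comparison of both. In whole muscle, a change in the share of a cell type and a change of RNA per cell cannot be told apart either.

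De novo lipogenesis turns carbohydrate carbon into fat. Citrate leaves the mitochondrion and is split in the cytosol by ATP citrate lyase (Acly) into oxaloacetate and acetyl-CoA, acetyl-CoA carboxylase (Acaca) makes malonyl-CoA, and fatty acid synthase (Fasn) assembles palmitate from both at the cost of NADPH, part of which malic enzyme (Me1) provides. Elovl6 lengthens palmitate to stearate, and the stearoyl-CoA desaturases Scd1 and Scd2 introduce the double bond of oleate. Acacb, the other carboxylase, sits at the mitochondrial outer membrane, where its malonyl-CoA restrains fatty acid oxidation, and it is the prevailing form in skeletal muscle. Thrsp (Spot14) is a small lipogenic protein that responds to thyroid hormone and carbohydrate, and Mlxipl encodes ChREBP, a transcription factor activated by glucose metabolites. The pathway is known mainly from liver, adipose tissue and lactating mammary gland, and skeletal muscle, with the adipocytes that lie between its fibres, uses it little.

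Fasn, Acly and Acaca lie on chromosome 11, Scd1 and Scd2 on chromosome 19, Acacb and Mlxipl on chromosome 5, and Elovl6, Thrsp and Me1 on chromosomes 3, 7 and 9. RefSeq promoter windows of 300 bases, from 250 before a transcription start to 50 after it, were at hand for 8 of the 10 genes on GRCm38.p6 and were searched on both strands for the E-box CACGTG bound by ChREBP, SREBP and USF proteins, the box CCAAT bound by NF-Y, the GC box GGGCGG, the sterol element core TCACNCCAC and the TATA box TATAAA. The 250 bases before the start are shown for 4 genes that were higher together in 19 mo V338Y muscle (Fasn, Thrsp, Acly and Elovl6) and for Acacb, which was not. They run 5′ to 3′ on the strand of the gene, and capitals mark the motifs found.
Fasn, chr11:120824548-120824797, minus strand: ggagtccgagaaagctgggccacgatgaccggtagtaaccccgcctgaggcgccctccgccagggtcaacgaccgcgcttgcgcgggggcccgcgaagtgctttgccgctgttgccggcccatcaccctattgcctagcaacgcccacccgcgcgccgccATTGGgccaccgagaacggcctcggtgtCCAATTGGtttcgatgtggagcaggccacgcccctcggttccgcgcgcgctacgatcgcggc
Thrsp, chr7:97417551-97417800, minus strand: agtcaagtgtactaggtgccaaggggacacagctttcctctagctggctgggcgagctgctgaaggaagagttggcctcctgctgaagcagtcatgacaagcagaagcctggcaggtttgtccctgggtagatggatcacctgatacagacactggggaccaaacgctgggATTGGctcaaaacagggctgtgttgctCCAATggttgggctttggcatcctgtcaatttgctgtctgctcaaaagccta
Acly, chr11:100528001-100528250, minus strand: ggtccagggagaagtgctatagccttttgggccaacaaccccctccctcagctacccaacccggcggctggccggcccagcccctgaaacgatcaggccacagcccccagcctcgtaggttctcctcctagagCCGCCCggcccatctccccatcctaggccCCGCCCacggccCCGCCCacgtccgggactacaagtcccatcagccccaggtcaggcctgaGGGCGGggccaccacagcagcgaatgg
Elovl6, chr3:129532136-129532385, plus strand: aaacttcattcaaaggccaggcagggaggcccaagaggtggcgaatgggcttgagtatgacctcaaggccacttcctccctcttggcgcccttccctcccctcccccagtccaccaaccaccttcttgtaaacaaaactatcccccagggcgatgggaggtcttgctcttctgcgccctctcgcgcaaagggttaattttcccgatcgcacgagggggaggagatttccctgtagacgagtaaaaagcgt
Acacb, chr5:114165268-114165517, plus strand: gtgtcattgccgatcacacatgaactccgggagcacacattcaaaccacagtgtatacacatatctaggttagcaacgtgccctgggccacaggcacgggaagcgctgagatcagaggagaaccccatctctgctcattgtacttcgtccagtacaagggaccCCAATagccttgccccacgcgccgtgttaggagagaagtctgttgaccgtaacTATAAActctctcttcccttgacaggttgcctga

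The Fasn promoter held 3 CCAAT boxes between positions -90 and -55 before the start, 2 of them overlapping in opposite orientation. Thrsp held 2, at positions -79 to -75 and -52 to -48. Acly held 4 GC boxes before its start and a CCAAT box just behind it, which lies outside the stretch shown, and no motif searched for was found in the windows of Elovl6 and Acaca. Acacb held a CCAAT box at -87 to -83 and a TATA box at -34 to -29. CCAAT occurs in 37.4% of the 32851 windows of 300 bases in the table, GGGCGG in 35.7%, TATAAA in 13.6%, CACGTG in 7.15% and TCACNCCAC in 1.24%, so a CCAAT or GC box is common. Among the members CACGTG was found in a window of Mlxipl alone and TCACNCCAC in the other Mlxipl window, and 2 CACGTG boxes spaced 5 bases apart were found in none of the windows of the table. The start sites of the Thrsp, Elovl6, Acaca and Acacb windows, of both Me1 windows and of the Mlxipl window with TCACNCCAC lie inside the gene as GENCODE annotates it, downstream of its outermost start.

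Per kilobase of exon, the scale on which genes can be set side by side, Scd1 and Acacb were the most abundant of the 10 transcripts in wild-type muscle. In 19 mo wild-type mice Scd1 stood at 75.7 ± 33.7 CPM per kilobase (SD, n = 3), Acacb at 40.8 ± 11.1 and Me1 at 32.04 ± 5.97. The values of Scd1 and Acacb overlapped between mice. Mlxipl (9.34 ± 1.42), Fasn (8.36 ± 3.74), Scd2 (6.27 ± 3.10), Acly (6.19 ± 1.35) and Thrsp (4.58 ± 1.57) formed a middle range whose neighbours overlapped. Acaca (2.27 ± 0.323) and Elovl6 (0.601 ± 0.368) were the least abundant. In 19 mo V338Y mice the order was Scd1 (414 ± 168, n = 4), Fasn (69.1 ± 51.0), Acacb (38.2 ± 11.4), Me1 (33.0 ± 9.92), Acly (24.98 ± 25.1), Thrsp (22.6 ± 9.49), Scd2 (12.49 ± 8.17), Mlxipl (10.6 ± 1.80), Acaca (7.32 ± 4.43) and Elovl6 (5.50 ± 6.44). Every mouse of that group had more Scd1 per kilobase than of any other member, and most neighbours below it overlapped.

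**Figure D1:**
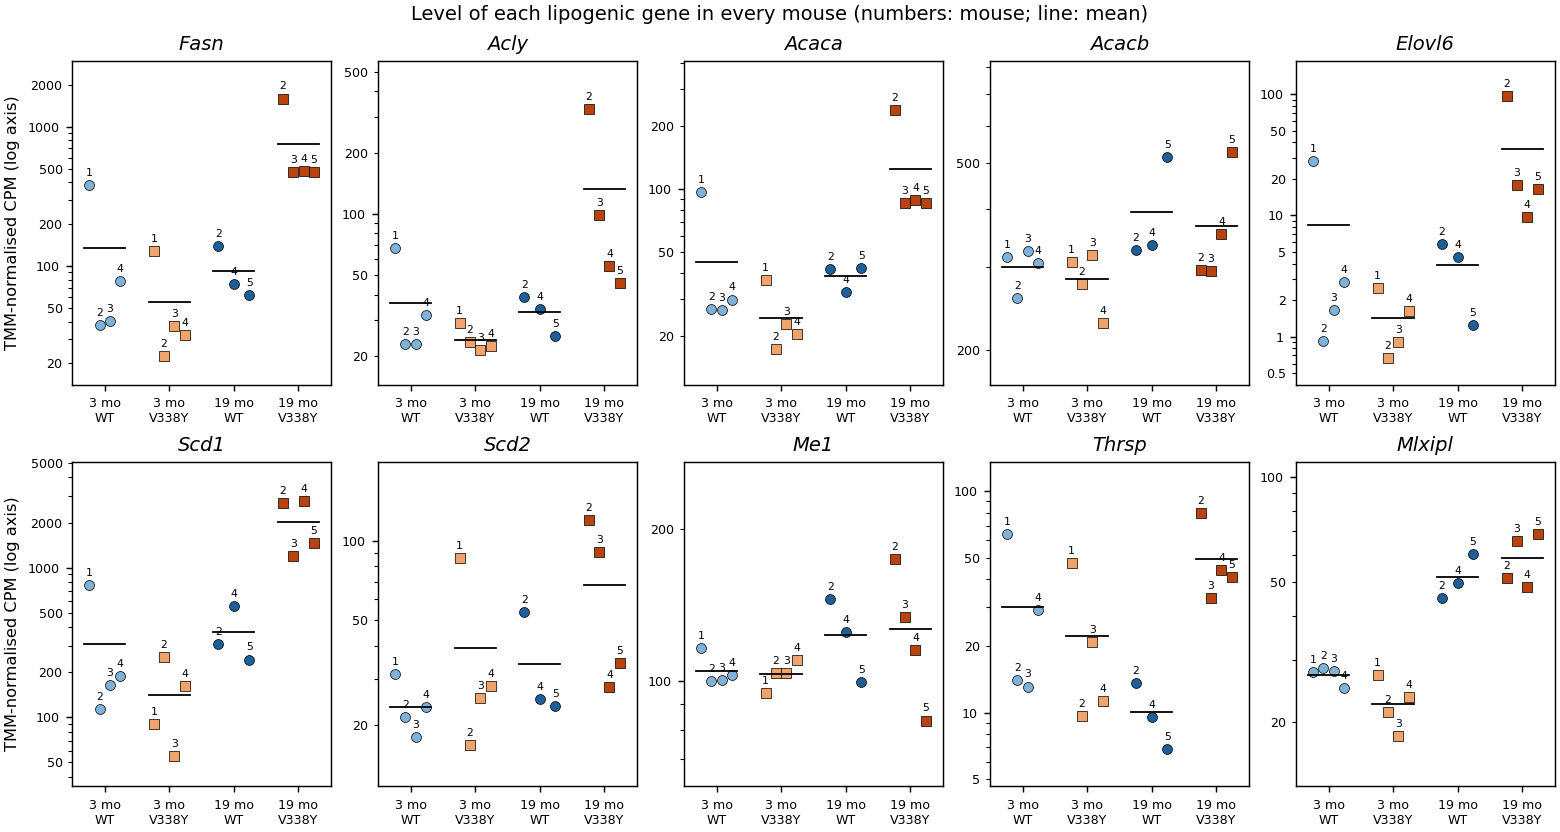
Level of each of the 10 genes in every mouse, as TMM-normalised CPM on log axes, with 1 panel per gene and the 4 groups along the x axis. Circles are wild-type mice and squares V338Y mice, the small numbers name the mouse, and the horizontal lines are group means. Fasn, Acly, Acaca, Elovl6, Scd1 and Thrsp are higher in all 4 V338Y mice of 19 mo than in the 3 wild-type mice of that age.

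Between the genotypes at 19 mo the levels of Fasn, Acly, Acaca, Elovl6, Scd1 and Thrsp did not overlap, and in these 6 of the 10 genes all 4 V338Y mice lay above all 3 wild-type mice. Of all 13833 genes tested, 4.51% showed that order. None of the 6 passed an adjusted p of 0.05 in edgeR's quasi-likelihood test, which called 0.0434% of all genes (6 genes) and does not use the mouse numbers. With the mouse number as a block 5 of the 6 passed, as did 0.882% of all genes. The labels do not say that equal numbers are pairs. Same-numbered mice of 19 mo correlated at r = 0.13 to 0.40, within the -0.41 to 0.47 of differently numbered mice. All 6 had an unadjusted p under 0.05, as had 6.17% of all genes in that direction. The median log2 fold change of the 10 members was 1.88, against 0.01 over all genes tested.

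Fasn stood at 138, 73.9 and 62.4 CPM in wild-type mice 2, 4 and 5 of 19 mo. It stood at 1594, 476, 479 and 477 CPM in V338Y mice 2 to 5, so that 3 of the 4 mice shared nearly the same level and mouse 2 was far above them. The log2 fold change was 3.08 ± 0.56 (SE), 8.44-fold, with an unadjusted p of 0.000481 and an adjusted p of 0.302 in edgeR's quasi-likelihood test. Acly, which supplies the acetyl-CoA, was at 39.0, 34.1 and 24.98 CPM in wild-type and at 328, 98.3, 55.4 and 45.8 CPM in V338Y mice. The Acly groups were close, with 45.8 CPM in the lowest V338Y mouse and 39.0 in the highest wild-type mouse, and the log2 fold change was 2.04 ± 0.68 (adjusted p = 0.534). Acaca, the cytosolic carboxylase, was at 41.7, 32.4 and 42.1 CPM in wild-type and at 238, 86.2, 89.0 and 86.1 CPM in V338Y mice. Its pattern was that of Fasn, 3 V338Y mice alike and mouse 2 apart, with a log2 fold change of 1.72 ± 0.40 (adjusted p = 0.479).

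Of the enzymes that modify palmitate, Elovl6 and Scd1 differed without overlap and Scd2 with overlap. Elovl6 stood at 5.84, 4.52 and 1.24 CPM in wild-type mice and at 97.3, 17.8, 9.74 and 16.5 CPM in V338Y mice, a log2 fold change of 3.19 ± 0.91 (adjusted p = 0.514). The lowest wild-type value rests on 15 counts. Scd1 was at 311, 556 and 243 CPM in wild-type and at 2686, 1190, 2773 and 1455 CPM in V338Y mice. The highest Scd1 level belonged to mouse 4 and not to mouse 2, and the log2 fold change was 2.48 ± 0.43 (unadjusted p = 0.000317 and adjusted p = 0.270 in edgeR). Scd2, a desaturase of brain and developing tissues, was at 53.8, 25.2 and 23.7 CPM in wild-type and at 120, 90.7, 27.8 and 34.3 CPM in V338Y mice. Its groups overlapped, and the log2 fold change was 1.02 ± 0.54 (adjusted p = 0.597).

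Thrsp had the smallest p of the 10 genes. It was at 13.7, 9.56 and 6.87 CPM in wild-type mice and at 79.8, 32.9, 44.2 and 41.1 CPM in V338Y mice, a log2 fold change of 2.32 ± 0.36 (unadjusted p = 0.000146, adjusted p = 0.168 in edgeR). The remaining members lay close together in both genotypes. Acacb was at 327, 335 and 516 CPM in wild-type and at 297, 295, 354 and 527 CPM in V338Y mice, with a log2 fold change of -0.06 ± 0.25. Its highest level belonged to mouse 5 in each genotype. Me1 was at 145, 125 and 99.6 CPM in wild-type and at 175, 134, 115 and 83.4 CPM in V338Y mice (log2 fold change 0.07 ± 0.24), with mouse 2 highest and mouse 5 lowest in each genotype. Mlxipl was at 45.01, 49.8 and 60.4 CPM and at 51.4, 65.5, 48.6 and 68.6 CPM (log2 fold change 0.20 ± 0.16). The adjusted p of these 3 genes was 0.966, 0.959 and 0.715, and the 2 carboxylase genes thus differed in their response to the same genotype by 1.72 against -0.06 on the log2 scale, a difference that was not tested.

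The call depended on the test and on the block by mouse number. With the mouse number as a block, over 3 pairs of mice and without V338Y mouse 3, which has no partner, 5 members passed: Thrsp (adjusted p = 0.000345), Fasn (0.00136), Scd1 (0.00270), Acaca (0.0453) and Elovl6 (0.0495), in edgeR. DESeq2 called 4 (Fasn, Acaca, Scd1 and Thrsp) and 0.448% of all genes. V338Y mouse 2, the shallowest library, set much of the size: without it the log2 fold change was 2.41 for Fasn, 1.93 for Elovl6, 1.196 for Acaca and 1.04 for Acly. In that fit 6 members had an unadjusted p under 0.05, with 0 called. The share of all genes under that unadjusted p was not computed there.

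**Figure D2:**
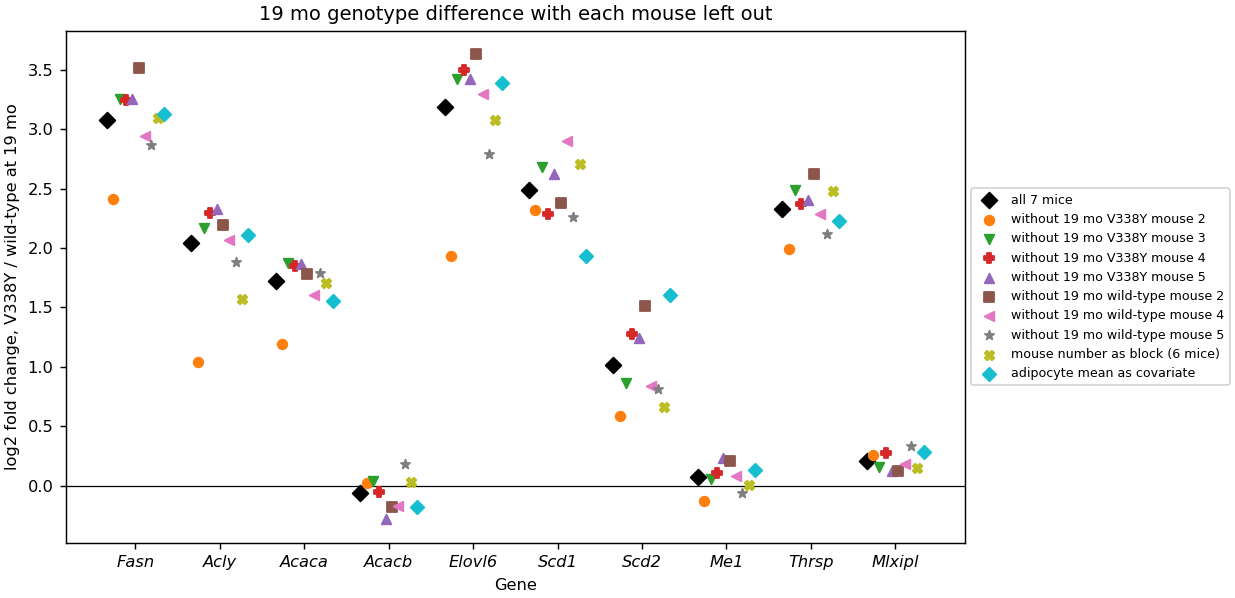
Log2 fold change of each gene from wild-type to V338Y muscle at 19 mo, with all 7 mice, with each mouse left out in turn, with the mouse number as a block, and with the adipocyte mean as a covariate. Without V338Y mouse 2, the orange circles, Fasn falls from 3.08 to 2.41 and Elovl6 from 3.19 to 1.93, and both stay above 0.

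At 3 mo the difference did not have that direction. None of the 10 genes was called, with 0.075% of the 13333 genes tested called (10 genes), and 9 of 10 were lower in V338Y mice, with a median log2 fold change of -0.48. Among them 2, Elovl6 and Mlxipl, had an unadjusted p under 0.05, as had 4.67% of all genes in that direction. Fasn was at 385, 37.5, 40.4 and 78.3 CPM in wild-type mice 1 to 4 and at 129, 22.6, 37.0 and 32.2 CPM in V338Y mice 1 to 4, and the groups overlapped (log2 fold change -1.27 ± 0.77, adjusted p = 0.637 in edgeR). Wild-type mouse 1 was the highest of its group in Fasn, Acly (67.6 CPM against 22.8 to 31.6), Acaca (97.2 against 26.7 to 29.8), Elovl6 (27.9 against 0.923 to 2.81), Scd1 (763 against 113 to 188) and Thrsp (64.3 against 13.1 to 29.1). Without it the log2 fold change of Fasn was 0.11, that of Thrsp 0.32 in place of -0.38 ± 0.57, and that of Elovl6 -0.24 in place of -2.43 ± 0.998. With the mean of the adipocyte markers as a covariate, 8 of the 9 negative values turned positive at 3 mo (Fasn 1.15, Thrsp 1.24, Elovl6 0.91), with 0 called.

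The same mouse was the highest of the 3 mo mice in Ucp1, Cidea, Elovl3 and Ppara, 4 of 6 thermogenic adipocyte markers. Ucp1, the uncoupling protein of brown fat, was at 328 CPM in wild-type mouse 1 and at 2.70, 1.39 and 37.0 CPM in the other wild-type mice of 3 mo. In V338Y mice of 3 mo it was at 4.25 CPM in mouse 1 and at 0 in the other three, and at 19 mo it did not exceed 0.321 CPM in any mouse. Cidea, another brown fat transcript, was at 68.9 CPM in that mouse and at 1.35 to 11.4 CPM in the rest of its group. Elovl3 was at 19.8 CPM in wild-type mouse 1 and did not exceed 0.690 CPM in V338Y mice of 3 mo. Ppara, Cox7a1 and Cox8b, which muscle fibres also express, varied less between the wild-type mice of 3 mo, from 233 to 287 CPM for Cox7a1, 228 to 300 CPM for Cox8b and 11.2 to 19.3 CPM for Ppara, and the mean of Cox7a1 and Cox8b was higher in V338Y mice (305 against 263 CPM and 295 against 262 CPM, neither called). The part of these transcripts in the lipogenic values was not tested. V338Y mouse 1 of 3 mo was likewise the highest of its group in Fasn (129 against 22.6 to 37.0 CPM) and Scd2 (85.8 against 16.9 to 28.2 CPM). It was also the highest in Acaca, Acly, Elovl6, Thrsp and Mlxipl. In Scd1 it was not (89.8 CPM, where mouse 2 had 254 CPM), nor in Acacb or Me1.

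The ages were compared within each genotype. In V338Y mice 6 genes rose (adjusted p under 0.05 in edgeR): Elovl6 by 4.56 ± 0.83 on the log2 scale, Scd1 by 3.87 ± 0.51, Fasn by 3.79 ± 0.65, Acly by 2.47 ± 0.57, Acaca by 2.36 ± 0.38 and Mlxipl by 1.38 ± 0.15. Their adjusted p ran from 0.000168 for Mlxipl to 0.00651 for Acly. Each of them was higher in every V338Y mouse of 19 mo than in every V338Y mouse of 3 mo. Of all 13868 genes tested 46.9% were called in this comparison and 24.4% were called as higher at 19 mo. Thrsp (1.14 ± 0.48, adjusted p = 0.0721), Scd2 (0.81 ± 0.57), Acacb (0.39 ± 0.20) and Me1 (0.31 ± 0.19) did not pass. The 6 calls held when any of the mice was left out, and Thrsp, Scd2 and Me1 passed under some of those fits.

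In wild-type mice 2 genes were called, where 36.2% of the 13657 genes tested were called and 18.3% were called as higher at 19 mo. Mlxipl rose by 0.92 ± 0.11 on the log2 scale (adjusted p = 0.000581 in edgeR), from 27.7, 28.5, 27.998 and 25.03 CPM at 3 mo to 45.01, 49.8 and 60.4 CPM at 19 mo, without overlap. Thrsp fell by 1.56 ± 0.55 (adjusted p = 0.0499), from 64.3, 14.1, 13.1 and 29.1 CPM to 13.7, 9.56 and 6.87 CPM, with an overlap of the groups. The Thrsp call was lost without wild-type mouse 1 of 3 mo (fell by 0.88, adjusted p = 0.0813), without wild-type mouse 4 of 3 mo (adjusted p = 0.0837) and without any of the 3 mice of 19 mo (adjusted p = 0.0580 to 0.128). Fasn (-0.56 ± 0.76), Elovl6 (-1.04 ± 1.06), Acaca (-0.21 ± 0.44) and Acly (-0.14 ± 0.36) were not called, and without mouse 1 of 3 mo their log2 fold changes were 0.82, 1.15, 0.48 and 0.35, that of Acaca then passing (adjusted p = 0.0223). Without that mouse Scd1, at 0.27 ± 0.60 with all mice, was at 1.26 (adjusted p = 0.0171). Mlxipl was the only member called in the same direction in both genotypes, and its rise was no more than 1.38 on the log2 scale in either.

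Whether the age difference depended on genotype was tested as the interaction of age and genotype in all 15 mice. It called 0 of the 10 genes and 0% of the 14128 genes tested at an adjusted p of 0.05 in edgeR's quasi-likelihood test. With an unadjusted p under 0.05, 7 members had a positive interaction, as had 5.06% of all genes: Elovl6 (5.57 ± 1.52), Fasn (4.32 ± 1.13), Scd1 (3.58 ± 0.87), Thrsp (2.69 ± 0.81), Acly (2.59 ± 0.77), Acaca (2.56 ± 0.65) and Mlxipl (0.45 ± 0.20). Their adjusted p ran from 0.364 to 0.505. With mouse numbers as blocks at both ages, over 14 mice, 4 members (and 0.828% of all genes) passed: Fasn (adjusted p = 0.00152), Thrsp (0.0143), Acaca (0.0196) and Elovl6 (0.0330). At 3 mo the numbers did not pair the mice, and with the block at 19 mo only 0 members passed (smallest adjusted p = 0.0701, for Scd1), as did 0.354% of all genes. DESeq2 called 0 members and 26 genes, and at an unadjusted p under 0.05 it found 6 members higher. Without both wild-type mouse 1 of 3 mo and V338Y mouse 2 of 19 mo, the 2 mice highest in Fasn at their age, the interaction was 2.28 for Fasn, 2.15 for Elovl6 and 1.35 for Acaca. In that fit 7 members had an unadjusted p under 0.05. For that fit and for DESeq2 the share of all genes under the unadjusted 0.05 was not computed. The comparisons share mice, so their values are not independent of each other.

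**Figure D3:**
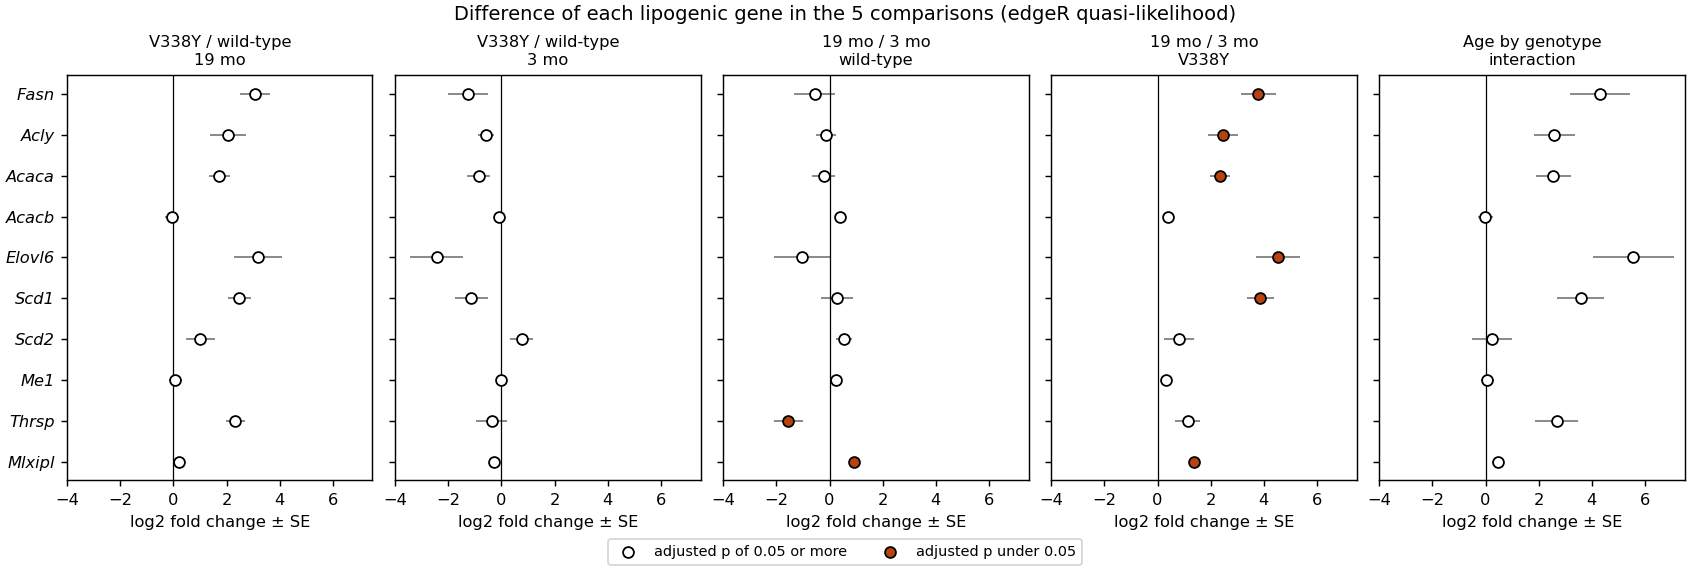
Log2 fold change of each gene, with its standard error as a bar, in the 5 comparisons, from edgeR's quasi-likelihood fit. Filled points passed an adjusted p of 0.05. In V338Y mice 6 genes passed as higher at 19 mo, in wild-type mice Mlxipl passed as higher and Thrsp as lower, and no gene passed in the other 3 panels.

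Adipocytes express the whole pathway, so their transcripts were set beside it. The 15 adipocyte markers summed to 991 to 2226 CPM in wild-type and 696 to 1176 CPM in V338Y mice at 3 mo, and to 573 to 1258 CPM and 587 to 2203 CPM at 19 mo. Plin4 had the highest mean of the 15 in each group, so the sums depend much on this gene. Its mean was 494 CPM in wild-type and 437 CPM in V338Y mice at 3 mo, and 489 and 383 CPM at 19 mo. At 19 mo 14 of the 15, all but Plin4, were higher in V338Y mice, with a median log2 fold change of 1.09, and no marker was at 0 in any mouse. In edgeR 5 had an unadjusted p under 0.05, as had 6.17% of all genes in that direction, and 0 were called. Adipoq, the gene of adiponectin, was at 24.7, 33.2 and 38.8 CPM in wild-type mice and at 77.6, 24.01, 143 and 44.4 CPM in V338Y mice 2 to 5. At 3 mo all 15 were lower in V338Y mice (median -0.91), 7 with an unadjusted p under 0.05 (4.67% of all genes in that direction) and 0 called.

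At 19 mo the 2 sets of transcripts shared the order of mice only in part. Over the 7 mice of both genotypes, Spearman's rho with the mean of the 15 markers was 0.75 for Scd1, 0.68 for Acaca and 0.64 for Fasn and Thrsp. It ran from -0.29 (Me1) to 0.39 (Acacb) in the other members. None passed in the exact permutation (smallest p, adjusted over 30 relations, 0.249 for Scd1). V338Y mouse 3 had the lowest Adipoq of the age (24.01 CPM) and 476 CPM of Fasn. Mouse 4 had 143 CPM of Adipoq and 479 CPM of Fasn. The ratio of Fasn to Adipoq was 20.5, 19.8, 3.34 and 10.7 in V338Y mice 2 to 5 and 5.59, 2.23 and 1.61 in wild-type mice. On the log2 scale, relative to the mean of the 15 markers, Fasn was at 2.73 to 5.34 in V338Y and 1.24 to 3.21 in wild-type mice, overlapping through V338Y mouse 4. Scd1, at 5.26 to 6.10 against 3.20 to 4.79, was the 1 member of 10 that stood higher in every V338Y mouse on this relative scale, an order found in 0.094% of all genes. With the adipocyte mean as a covariate in edgeR the log2 fold change at 19 mo was 3.12 ± 0.74 for Fasn, 1.93 ± 0.43 for Scd1 and 2.22 ± 0.46 for Thrsp. With that covariate 7 members were higher with an unadjusted p under 0.05, as were 3.6% of all genes, and none was called (adjusted p = 0.831 for each of these 3).

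**Figure D4:**
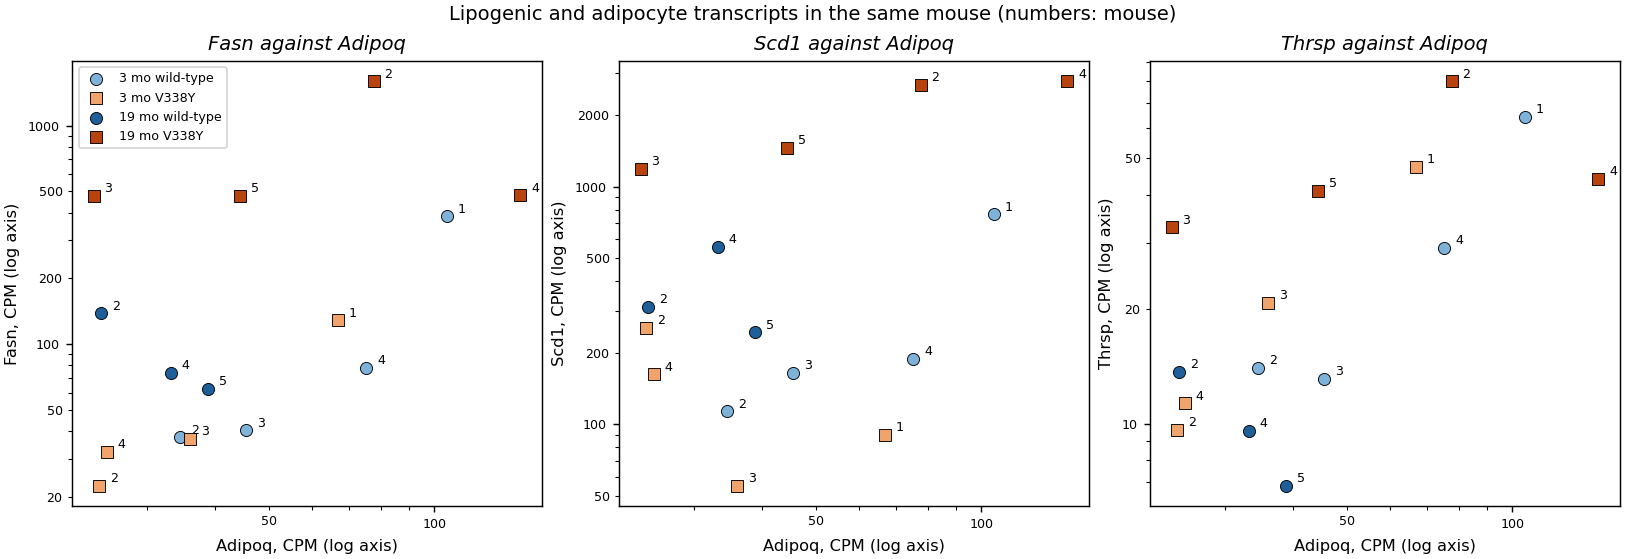
Fasn, Scd1 and Thrsp against Adipoq in each of the 15 mice, all as CPM on log axes. Circles are wild-type and squares V338Y mice, pale for 3 mo and dark for 19 mo, and the numbers name the mouse. At 3 mo the points rise together for Fasn and Thrsp. The V338Y mice of 19 mo, at 24.01 to 143 CPM of Adipoq, lie higher than the wild-type mice of that age. Those wild-type mice span only 24.7 to 38.8 CPM of Adipoq, and no V338Y mouse of 19 mo lies inside that range.

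At 3 mo, over 8 mice of both genotypes, 4 of the 10 members passed as related to the adipocyte mean. The share of all genes that pass in the same way was not computed, so the count is not set against a background. The permutation there ran across genotypes, and 9 of the 10 members and all 15 adipocyte markers were lower in V338Y mice. The relations at 3 mo therefore mix the genotype difference with that between mice of a group. Of 30 relations computed (10 genes, each at 3 mo, at 19 mo and centred on group means), Pearson's r at 3 mo was 0.91 for Fasn (exact permutation p = 0.00273, Benjamini-Hochberg adjusted 0.0221), with Spearman's rho of 0.95 (p = 0.00114, adjusted 0.0335). For Acaca r was 0.92 (exact p = 0.00114, adjusted 0.0221) and rho 0.93 (p = 0.00223, adjusted 0.0335). Elovl6 (r = 0.89, exact p = 0.00295) and Acly (r = 0.89, exact p = 0.00191) passed on r, both with an adjusted 0.0221, and did not pass on rho (0.86 and 0.79, adjusted p = 0.0804 and 0.140). Without the 2 mice farthest from the median of the adipocyte mean, wild-type mouse 1 and V338Y mouse 4, r was 0.78 for Fasn, 0.81 for Acaca, 0.95 for Elovl6 and 0.80 for Acly, and 0 of the 10 relations passed the adjustment over 6 mice. Thrsp missed the adjustment (r = 0.83, exact p = 0.00985, adjusted 0.0591), and the other members, Acacb, Mlxipl, Me1 and Scd2, had r of 0.59, 0.58, 0.28 and 0.26. Scd1 had r = 0.60 (exact p = 0.116), falling to 0.12 without those mice, so that its relation rests on them. At 19 mo the genotypes form separate clusters in 6 members, so no pooled r is given there, and the rho given above holds the genotype difference too. Centred on the means of the 4 groups, over all 15 mice, r was 0.59 for Thrsp (exact permutation within groups, p = 0.0289, adjusted 0.144), 0.53 for Acaca (p = 0.121) and 0.52 for Fasn (p = 0.0786), and none passed the adjustment. Without V338Y mice 3 and 4 of 19 mo, the farthest from the median, the centred r was 0.74 for Thrsp, 0.77 for Acaca and 0.75 for Fasn, and again none passed. Both quantities of a relation come from the same library and share its normalisation.

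Within groups 16 of the 45 pairs of members varied together and 1 pair varied in opposite directions, with a median r of 0.43 over the 45 pairs. The share of pairs of other genes that pass in the same way was not computed, so these counts describe the members alone. The pairs among the 10 members were compared on log2 values centred on group means (15 mice, exact permutation within groups). Fasn, Thrsp, Acaca, Elovl6 and Acly were grouped after their values were seen, so that their passing together is only a description. Their 10 pairs had r of 0.63 to 0.95, all with an adjusted p under 0.05 (9 of 10 on Spearman's rho). The closest pair was Fasn and Thrsp, with r = 0.95 (exact p = 8.4e-05, adjusted 0.00326), rho = 0.94 (adjusted 0.00163) and r = 0.91 without the 2 mice farthest from the median of Thrsp. Without the 2 farthest mice the 10 pairs ranged from 0.51 to 0.91. Acly with Acaca (exact permutation p = 0.123) and Acaca with Elovl6 (0.148) were then over an unadjusted 0.05. Scd2 joined these 5 genes at r of 0.64 to 0.72. Scd1 did not pass with any member, its highest r being 0.59 with Elovl6 (exact p = 0.0727, adjusted 0.164). Me1 passed with Acly (r = 0.82, exact p = 0.00298, adjusted 0.0103) and, in the opposite direction, with Acacb (r = -0.80, exact p = 0.00922, adjusted 0.0244). Mlxipl passed with no member.

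**Figure D5:**
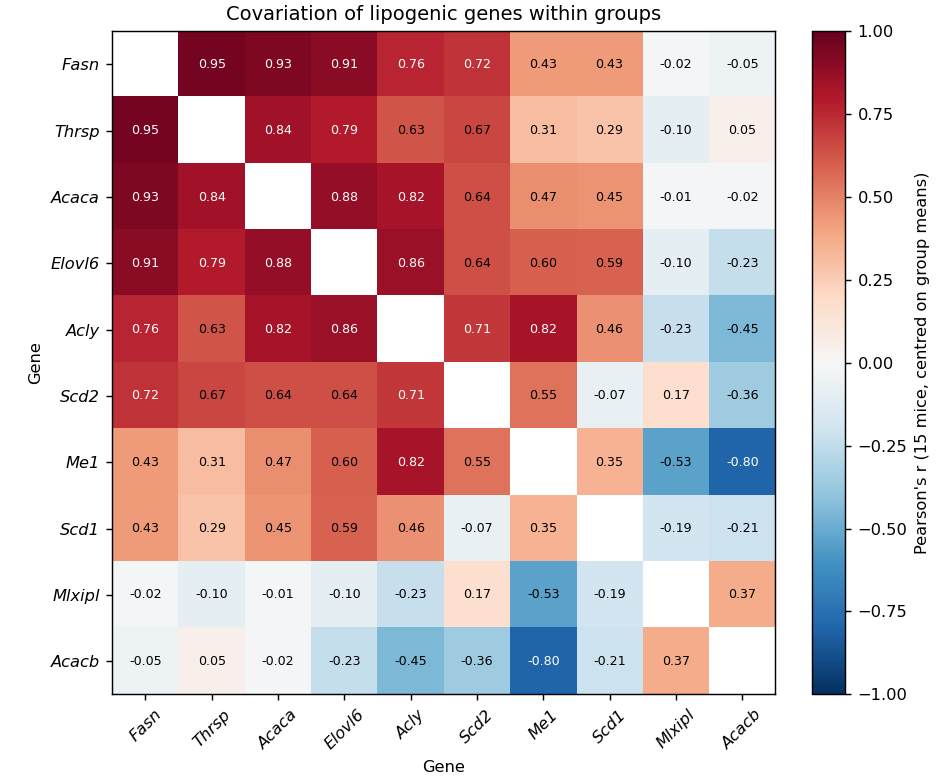
Pearson's r for the 45 pairs of genes over 15 mice, from log2 values centred on the mean of each group. Red is positive and blue negative, and the number in each square is r. Fasn, Thrsp, Acaca, Elovl6 and Acly share high values (0.63 to 0.95), Scd1 lies apart from them, and Me1 and Acacb run in opposite directions (-0.80).

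Fasn's closest companions among all genes were ranked by the same centred r over 15 mice, with a mean of at least 1 CPM required (12827 genes other than Fasn). This is a description and carries no test. Among the members Thrsp ranked at 1, Acaca at 5, Elovl6 at 9, Acly at 84, Scd2 at 129, Me1 at 1284, Scd1 at 1287, Mlxipl at 6586 and Acacb at 6992. The brown fat transcripts Elovl3 and Ucp1 ranked at 20 (r = 0.85) and 34 (r = 0.83), above Acly. At 19 mo they did not exceed 0.200 and 0.321 CPM in any mouse. Wild-type mouse 1 of 3 mo had 19.8 and 328 CPM of them and 385 CPM of Fasn. The ranking was not repeated without that mouse. The 10 genes outside the list with the highest r were Slc25a1 (0.95), Hsd17b12 (0.95), Tkt (0.94), Chst15 (0.93), Pnpla3 (0.91), Aacs (0.91), Gpx8 (0.90), Gss (0.89), Rmdn3 (0.89) and Eno1 (0.88). Slc25a1 is the mitochondrial citrate carrier, Hsd17b12 the reductase of the fatty acid elongation cycle, Tkt the transketolase of the pentose phosphate pathway and Aacs the cytosolic acetoacetyl-CoA synthetase.

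Around the members, the genes that supply substrate and NADPH were higher in 19 mo V338Y mice more often than they were lower. Of 12 such genes 11 had a positive log2 fold change, with a median of 0.72. In edgeR 8 had an unadjusted p under 0.05, as had 6.17% of all genes in that direction, and 0 were called. Slc25a1 was at 4.10, 3.41 and 3.89 CPM in wild-type and at 28.9, 9.72, 11.5 and 8.68 CPM in V338Y mice (1.97 ± 0.44, adjusted p = 0.467 in edgeR). Pcx, pyruvate carboxylase, was at 66.8 to 77.8 against 116 to 191 CPM (1.03 ± 0.18, adjusted p = 0.270). G6pdx, the first enzyme of the pentose phosphate pathway, was at 7.71 to 8.52 against 13.7 to 23.4 CPM (1.17 ± 0.21, adjusted p = 0.302), and Tkt at 17.0 to 21.1 against 39.4 to 120 CPM (1.87 ± 0.37, adjusted p = 0.395). In 7 of the 12 genes, these 4 among them, every V338Y mouse lay above every wild-type mouse, as in 4.51% of all genes. Between 3 and 19 mo in V338Y mice 6 of the 12 rose and 1 fell by the adjusted p in edgeR. G6pdx (1.68 ± 0.20) and Tkt (1.93 ± 0.36) were among those that rose. Of all genes 46.9% were called in that comparison and 24.4% were called as higher at 19 mo.

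Of 17 elongation and desaturation genes 11 passed the filter on counts at 19 mo, and 10 of them were higher in V338Y mice. Of these 3 had an unadjusted p under 0.05 (Hsd17b12, Hacd2 and Elovl5), as had 6.17% of all genes in that direction, and 0 were called. Hsd17b12 was at 6.87 to 7.26 CPM in wild-type and 9.72 to 16.4 CPM in V338Y mice (0.76 ± 0.20, adjusted p = 0.511 in edgeR). Of 14 triglyceride assembly genes 11 were higher, 5 with an unadjusted p under 0.05 (beside the same 6.17% of all genes) and 0 called. The smallest p belonged to Agpat2 (1.59 ± 0.40), Acsl5 (0.65 ± 0.17) and Pnpla3 (0.99 ± 0.29).

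No transcript of a regulator was called at 19 mo. Of 17 transcriptional regulators 10 were higher and 7 lower in V338Y mice at 19 mo, with a median log2 fold change of 0.05. Among them 1, Pparg, had an unadjusted p under 0.05 (1.03 ± 0.29, adjusted p = 0.511 in edgeR), as had 6.17% of all genes in that direction. Pparg is also an adipocyte marker. Srebf1, which encodes the sterol element binding protein that drives lipogenic genes, was at 55.0, 48.9 and 43.9 CPM in wild-type and at 61.5, 54.3, 55.9 and 35.2 CPM in V338Y mice, overlapping, with a log2 fold change of 0.10 ± 0.19. The ChREBP partner Mlx (0.14 ± 0.15) and the related Mlxip (-0.20 ± 0.15) had values near 0 as well. With age Mlxip rose in wild-type (1.41 ± 0.11) and V338Y mice (1.15 ± 0.13), as Mlxipl did. Of 8 genes of malonyl-CoA and carboxylase control 0 had an unadjusted p under 0.05 at 19 mo, with a median of -0.15. Mid1ip1, the partner of Thrsp that promotes polymerisation of acetyl-CoA carboxylase, was at 11.8, 10.7 and 20.4 CPM in wild-type and at 14.8, 12.8, 17.7 and 25.6 CPM in V338Y mice (0.35 ± 0.30).

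Markers of other cell types also differed between the mice of 19 mo. The 5 neutrophil markers summed to 2.07 to 4.301 CPM in wild-type and 2.30 to 545 CPM in V338Y mice, where mouse 5 had 189 CPM of S100a9. The 5 erythroid markers summed to 97.2 to 151 and 159 to 783 CPM. All 5 neutrophil and all 5 erythroid markers were higher in V338Y mice with an unadjusted p under 0.05 in edgeR. So were 6.17% of all genes, and 0 of these markers were called. Every V338Y mouse lay above every wild-type mouse in only 2 of the neutrophil and 1 of the erythroid markers, as in 4.51% of all genes. S100a9 was at 0.801 and 0.402 CPM in V338Y mice 2 and 4, below the 1.04 to 2.32 CPM of the wild-type mice. The 10 myofiber markers summed to 249350 to 306599 CPM in wild-type and 180608 to 284839 CPM in V338Y mice. V338Y mouse 5, the highest in neutrophil markers, had Fasn at 477 CPM, close to the 476 and 479 CPM of mice 3 and 4. Without it the log2 fold change of Fasn was 3.25 and that of Scd1 2.62. Of the 4 keratinocyte markers 2 passed the filter on counts, and the 4 summed to 0.444 to 0.746 CPM in wild-type and 0.707 to 7.33 CPM in V338Y mice. Krt5, a keratin of the basal epidermis, was at 1.40 CPM in V338Y mouse 2 and at 3.41 CPM in mouse 4, the mice with the most Scd1 (2686 and 2773 CPM), and at 0 in the other 19 mo mice. All 5 macrophage markers were higher in V338Y mice (2 with an unadjusted p under 0.05), as were the 6 Schwann cell markers tested (1), the 5 endothelial markers (0) and 4 of the 5 fibroblast markers (1), and none of these was called. The part of these lists in the lipogenic values was not tested.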

How the data were processed

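Quadriceps RNA of 15 mice was sequenced single-end with stranded libraries. The authors deposited RSEM expected counts per Ensembl gene, as whole numbers, 1 file per mouse. The processing notes name STAR 2.4.2a and GRCm38. Symbols and positions were taken from GENCODE on GRCm38 (37607 of 39179 identifiers), and 15 distinct count vectors were found. From the deposited counts, CPM were computed with TMM factors in edgeR 4.0.16 (R 4.3.3). A gene was tested where 50% or more of the mice in either group of a comparison had 10 or more counts, and all 10 members passed in each of the 5 comparisons. The main test was edgeR's quasi-likelihood F-test on the compared groups only, with Benjamini-Hochberg adjustment over all genes tested and a threshold of 0.05, and the interaction was fitted in all 15 mice. Fold changes are log2 with their standard error. Relations used log2(CPM + 0.5) and exact permutations. The members, lists and promoter motifs were chosen with earlier results of these data known. Genes named outside the lists were the 10 most like Fasn by centred r. The mice are the replicates, and whether the mice of a group shared a litter is not given.

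Mouse numbers recur between groups. Deviations from group means correlated at r = 0.13 to 0.40 in the 3 same-numbered pairs at 19 mo, all over 0.1, so those numbers were treated as pairs and the blocked value stands beside the 19 mo result, the main fit being without the block, although the 9 other pairs ranged from -0.41 to 0.47. At 3 mo the 4 pairs ranged from -0.16 to 0.14, and between ages from -0.14 to 0.02, and there the numbers were not treated as pairs. Alternatives were other normalisations, DESeq2 1.42.0, edgeR's likelihood ratio test, other filters, the replicate block, an adipocyte covariate and each mouse left out. Chosen after seeing the data were leaving out wild-type mouse 1 of 3 mo with V338Y mouse 2 of 19 mo, a block at 19 mo only and, across age in wild-type mice, mice 2 and 4 alone.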

Additional observations from a re-analysis of the deposited data

Results flagged for a closer look

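Among the 30 sets of 4 mice tested for a mouse far from its group by Dixon's ratio (10 genes in 3 groups), 10 were flagged, each for its highest mouse. The ratio was taken on CPM without a log. Its limit flags about 1 in 20 sets of normally distributed values, and the rate for CPM of other genes was not computed. Wild-type mouse 1 of 3 mo stood above its group in Fasn (385 CPM), Scd1 (763 CPM), Acaca (97.2 CPM), Elovl6 (27.9 CPM) and Me1 (116 CPM). The nearest other wild-type mouse was at 78.3 CPM in Fasn and at 188 CPM in Scd1. V338Y mouse 1 of 3 mo stood above its group in Fasn (129 CPM) and Scd2 (85.8 CPM). V338Y mouse 2 of 19 mo stood above its group in Fasn (1594 CPM), Acaca (238 CPM) and Elovl6 (97.3 CPM). The genes are not independent, since Fasn, Acaca and Elovl6 varied together between mice. The group of 3 wild-type mice of 19 mo is too small for this ratio.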

How the results depend on the processing

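At 19 mo the number of members called between genotypes was 0, and it was 4 with DESeq2, 4 with the likelihood ratio test, 3 with no filter and 5 with the replicate block, while all genes called numbered 6, 62, 72, 14 and 122. Leaving out a mouse gave 0 in every case, and 5 to 7 members with an unadjusted p under 0.05, for which the share of all genes was not computed. In wild-type mice across age 2 members were called, 1 with DESeq2, 1 without the 10 most counted genes, 1 in the fit of all 15 mice, and 1 to 3 with a mouse left out. In V338Y mice across age the 6 calls became 6 to 8 with a mouse left out. For the interaction 0 members were called, 4 in the likelihood ratio test and 4 under the replicate block, with 0, 36 and 117 genes in all, and 0 members and 50 genes with the block at 19 mo only. At 3 mo 0 members were called under every alternative run. The relation to the adipocyte mean at 3 mo passed in 4 members, in 5 with a pseudocount of 2 and 5 with Adipoq alone, where Thrsp also passed, in 4 with a pseudocount of 0.1, and in 0 without the 2 farthest mice. The cause of these differences was not tested, apart from the fewer mice of the last.

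The direction of the following values turned under at least 1 alternative. With the adipocyte covariate at 3 mo the log2 fold change was 1.15 for Fasn, 0.34 for Acly, 0.34 for Acaca, 0.072 for Acacb, 0.91 for Elovl6, 0.34 for Scd1, 0.023 for Me1 and 1.24 for Thrsp. With a mouse left out at 3 mo it ranged from -2.14 to 0.11 for Fasn, -0.15 to 0.00072 for Acacb, -0.058 to 0.033 for Me1 and -1.08 to 0.32 for Thrsp. At 19 mo Acacb ranged from -0.28 to 0.18 and Me1 from -0.13 to 0.23, and Acacb was at 0.027 with the replicate block. Across age in wild-type mice the block, which there keeps mice 2 and 4 alone, gave 0.91 for Fasn, 0.45 for Acly, 0.38 for Acaca and 1.58 for Elovl6, and the same 4 mice without the block gave 0.88, 0.43, 0.39 and 1.52. With a mouse left out the ranges were -0.99 to 0.82 for Fasn, -0.31 to 0.35 for Acly, -0.40 to 0.48 for Acaca, -1.48 to 1.15 for Elovl6 and -0.15 to 1.26 for Scd1. The interaction of Acacb was 0.0045 with RLE factors, 0.028 with upper-quartile factors, 0.0045 with DESeq2, 0.0039 with no filter, 0.086 with the block, 0.080 with the block at 19 mo only, 0.012 without the 10 most counted genes, 0.066 without both high mice and -0.20 to 0.25 with a mouse left out. That of Scd2 was -0.13 with the block at 19 mo only, -0.34 without both high mice and -0.16 to 1.001 with a mouse left out, and that of Me1 was -0.0076 with the block, -0.0068 with the block at 19 mo only, -0.18 without both high mice and -0.11 to 0.25 with a mouse left out. Centred on the groups, r with Adipoq alone was 0.079 for Scd2 and 0.0034 for Me1, and without the 2 farthest mice r was 0.44 for Scd2, 0.059 for Me1 and 0.24 for Mlxipl. At 3 mo r of Me1 was -0.41 without the 2 farthest mice. The replicate block raised the calls at 19 mo and for the interaction. Across age in wild-type mice the fit with the block called 2249 of all genes and not Thrsp (adjusted p = 0.129), and the same 4 mice without the block gave 2317 genes and not Thrsp (adjusted p = 0.104), against 4940 genes with all 7 mice.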
